A study of Homo sapiens with 4 samples.

Results

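The SWI/SNF genes described here are 10 subunits of the chromatin remodelling complex, SMARCA4, SMARCA2, SMARCB1, SMARCC1, SMARCD3, SMARCE1, ARID1A, ARID1B, ARID2 and PBRM1. They were chosen by name, and all probe sets that the platform annotation assigned to 1 of these symbols alone were taken, 50 of the 54675 probe sets on the arrays. The arrays were Affymetrix 1-colour arrays, with 1 array for each of 4 groups: A549 with an empty vector, A549 with a CHST11 vector, NCI-H358 with an empty vector and NCI-H358 with a CHST11 vector. A549 is a human lung adenocarcinoma cell line that carries a SMARCA4 mutation, and NCI-H358 is a human bronchioloalveolar carcinoma cell line. All 4 cultures were stably transduced and selected with antibiotics, so the controls carried a vector too. CHST11 is a Golgi enzyme that adds sulfate to chondroitin. Each line stands for 1 tumour, and the labels do not say whether its arrays came from separate cultures beyond the vector, so p-values between lines measure the spread between these arrays and not between tumours.

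SWI/SNF complexes use the energy of ATP to slide or evict nucleosomes and so open promoters and enhancers. Each complex holds 1 of the alternative ATPases, SMARCA4 (BRG1) or SMARCA2 (BRM). In the canonical BAF and the PBAF form it sits with a core that includes SMARCB1, SMARCC1, SMARCE1 and a SMARCD protein, and a non-canonical form lacks SMARCB1 and SMARCE1. An ARID1 protein marks canonical BAF, and ARID2 with PBRM1 marks PBAF. Several of these subunits are recurrently mutated in cancer, and loss of SMARCA4 is known in lung adenocarcinoma, where cells can depend on the paralogue SMARCA2.

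The labels were checked first. CHST11 probe set 219634_at had signals of 129 and 343.5 in A549 with the empty and the CHST11 vector, and of 220.1 and 1058 in NCI-H358, while its other probe sets 226368_at and 226372_at had 66.4 to 187. CDKN2A, a cell cycle inhibitor on the short arm of chromosome 9 that is deleted in A549, had signals of 18.4 and 23.9 in A549 and of 668 and 804 in NCI-H358 at 209644_x_at, at least 27.1-fold higher in NCI-H358. Across probe sets, log2 signals of the arrays correlated with r = 0.996 within each line and 0.938 to 0.939 between lines. Of 6 epithelial markers, 6 passed the signal filter, with a summed signal of 23049 to 26023 that came mostly from keratins. Single markers differed between the lines in both directions: EPCAM was 31.9-fold, KRT19 20.3-fold and CDH1 4.69-fold higher in NCI-H358, and KRT8 was 2.61-fold, KRT18 2.17-fold and KRT7 1.35-fold higher in A549. NKX2-1, the lung lineage factor, had signals of 5.63 and 6.39 in A549 and of 247 and 264 in NCI-H358, so this defining lung marker was below the filter in A549. From the same lung list, SFTPB had 27.3 to 30.5 over the 4 arrays and was not called. NAPSA had 18.2 to 18.9, below the filter on all arrays. The leukocyte list had a summed signal of 77.3 to 112, with PTPRC at 3.52 to 3.84, and 3 of its 5 genes passed the filter. LAPTM5 had 22.3 and 19.5 in A549 and 73.1 and 56.3 in NCI-H358, CD14 had 24.2 and 38.4 in A549 and 10.6 and 11.1 in NCI-H358, and CD3E had 21.9 to 27.1 over the 4 arrays. The part of these markers in the subunit values was not tested. The fibroblast list had 209 to 232, most of it from COL1A1 at 153 to 170, and 1 of its 6 genes passed. The endothelial list had 65.9 to 76.4, and 1 of its 5 genes passed. No measured marker of these lists was listed at 0, and CD68 was not analysed here.

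Of the 50 SWI/SNF probe sets, 35 reached a signal of 27 on at least 1 array and were tested, and 15 did not. This level, the 60th percentile of all deposited values, served as the signal filter. Each of the 10 genes had at least 1 probe set past it, and 5 of the 35 probe sets passed through 1 line only. The filter favoured the direction of these 5, and a set far above the filter in that line had to differ. ARID1A 207591_s_at, which passed close to the filter, was not called. The probe set suffix matters for reading the values: an _s_at set can match several transcripts or related genes, and an _x_at set holds probes that may bind other transcripts.

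The sequences before the start sites of the genes furthest apart between the lines, SMARCA4, SMARCA2 and SMARCD3, are shown first, since the report turns on these genes. RefSeq (GRCh38.p14) held a promoter for 8 of the 10 genes, and SMARCC1 and ARID2 had none in the table. Each line gives the 250 bases before the outermost start, 5′ to 3′ on the gene's strand, with matches to the GC box GGGCGG on either strand in capitals. The windows are chr19:10960780-10961029 (plus strand) for SMARCA4, chr9:2015097-2015346 (plus strand) for SMARCA2 and chr7:151277150-151277399 (minus strand) for SMARCD3.
SMARCA4: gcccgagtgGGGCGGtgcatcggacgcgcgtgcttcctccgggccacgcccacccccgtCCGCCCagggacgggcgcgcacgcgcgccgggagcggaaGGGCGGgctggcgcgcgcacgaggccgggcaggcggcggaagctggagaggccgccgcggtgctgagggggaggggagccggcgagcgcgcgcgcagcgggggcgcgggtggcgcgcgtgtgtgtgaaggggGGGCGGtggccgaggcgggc
SMARCA2: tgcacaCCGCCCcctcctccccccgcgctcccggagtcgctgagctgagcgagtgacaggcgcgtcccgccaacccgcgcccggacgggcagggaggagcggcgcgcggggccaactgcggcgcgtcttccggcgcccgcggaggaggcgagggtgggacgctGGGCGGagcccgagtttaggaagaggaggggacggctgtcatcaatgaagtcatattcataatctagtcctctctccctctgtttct
SMARCD3: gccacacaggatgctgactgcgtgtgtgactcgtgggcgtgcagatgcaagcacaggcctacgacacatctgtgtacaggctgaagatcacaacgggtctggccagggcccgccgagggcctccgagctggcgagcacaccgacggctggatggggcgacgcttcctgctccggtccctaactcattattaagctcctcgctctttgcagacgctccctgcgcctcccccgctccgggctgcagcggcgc

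The SMARCA4 window held 82.4% G and C, 4 GC boxes and a CpG content of 1.10 times that expected from its base composition. The SMARCA2 window held 68.8% G and C, 2 GC boxes and 0.981 times the expected CpG. The SMARCD3 window held 65.2% G and C, 0.793 times the expected CpG and no GC box letters. Over all 35116 promoter windows of that length the median was 58% G and C with 0.558 times the expected CpG, and 42.6% held a GC box. All 8 SWI/SNF windows lacked TATAAA on both strands, which 10.7% of all windows held. CCAAT was found on either strand in 4 of the 8, against 32% of all windows. The lowest G and C content among the 8 was 38.8%, at ARID1B. A match is a run of letters in these windows and not a measured binding site.

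**Figure D1:**
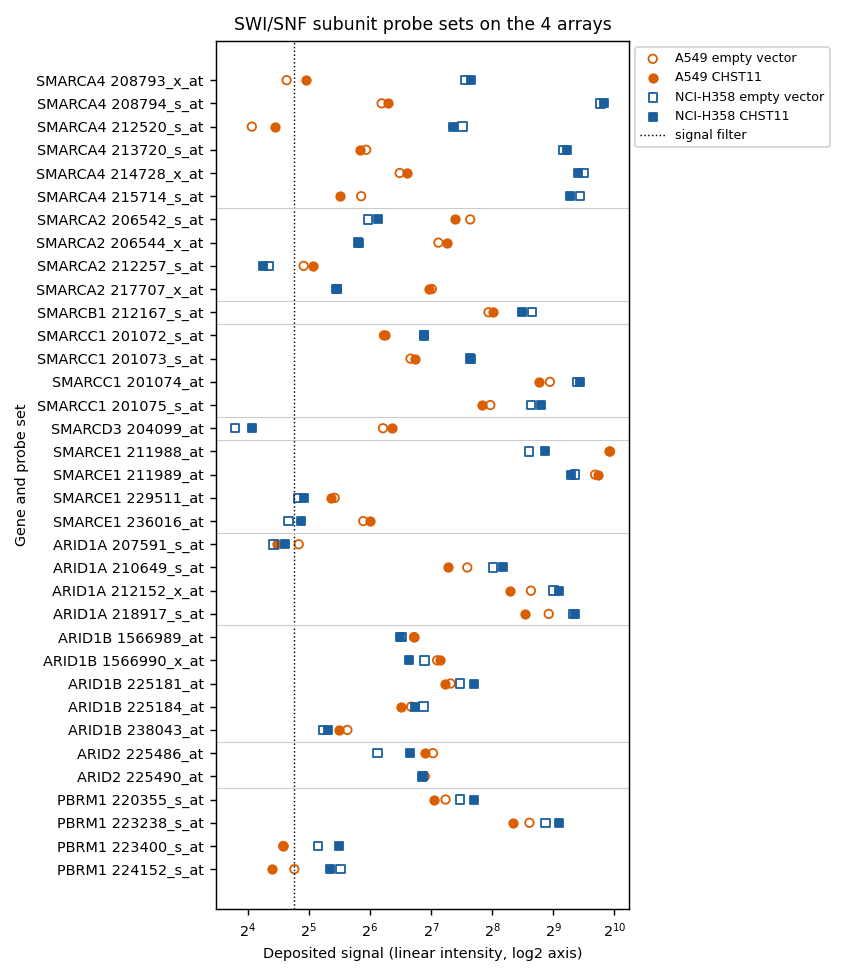
Deposited signal (x axis, linear intensity on a log2 axis) of the 35 SWI/SNF probe sets past the filter, 1 row for each, on the 4 arrays; circles are A549, squares NCI-H358, open symbols the empty vector and filled symbols the CHST11 vector, and the dotted line is the filter at 27. The SMARCA4 squares lie far to the right of the circles, and the SMARCA2 and SMARCD3 squares to the left.

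The first comparison asked how the subunits differed between the 2 cell lines. Of the 35 probe sets tested, 18 were higher in NCI-H358 and 10 were higher in A549 at an adjusted p of 0.05 or less (limma, terms for cell line and vector, adjusted over 24457 probe sets). The lines differed widely: over all probe sets, 32.8% were called higher in NCI-H358 and 29.2% higher in A549, 62.0% together, so a call alone does not set a subunit apart. Of the 30 SWI/SNF sets measured in both lines, 16 were called higher in NCI-H358 and 8 higher in A549, where 57.6% of all probe sets measured in both lines were called. At least 2-fold apart were 12 of the 35 SWI/SNF probe sets, against 22.9% of all tested. These 12 were the SMARCA4 sets, 3 of the SMARCA2 sets, 2 of the SMARCE1 sets and the SMARCD3 set. Among them, SMARCA4 212520_s_at and the SMARCD3 set passed the filter only through the line where they are high, so they add no support. Sets of 1 gene are not independent, so the count leans on genes with many sets. With 1 probe set per gene, 1 of the 10 genes was at least 2-fold higher in NCI-H358 and 2 in A549, SMARCD3 among the latter. Over all 12288 genes these were 1536 and 1483.

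SMARCA4, the BRG1 ATPase, was lower in A549 at each of its 6 tested probe sets, by 7.06-fold to 12.7-fold at the 5 sets measured in both lines and by at least 6.405-fold at 212520_s_at. At 208794_s_at, the brightest, the signals were 73.1 and 79.0 in A549 with the empty and the CHST11 vector and 877 and 908 in NCI-H358. At 215714_s_at they were 58.0 and 45.7 in A549 and 695 and 618 in NCI-H358, and at 213720_s_at 61.3 and 57.3 against 576 and 601. The lines did not overlap at any of these sets, and the arrays of a line lay far closer to each other than to the other line. The difference at 208794_s_at was log2 3.55 (SE 0.10, limma adjusted p = 3.86e-05), and 171 of the 24457 tested probe sets had a larger excess in NCI-H358.

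The remaining SMARCA4 sets were dimmer or shared. At 214728_x_at the signals were 89.7 and 97.6 in A549 and 723 and 677 in NCI-H358. At 208793_x_at they were 24.9 and 30.9 against 189 and 202. At 212520_s_at both A549 arrays, at 16.8 and 21.9, were below the filter, against 183 and 164 in NCI-H358, so the fold there is a lower bound. SMARCA4 thus reached the filter on at least 1 A549 array at 5 sets. The sets 1569073_x_at, 213719_s_at and 214360_at did not reach the filter on any array, with signals of 4.17 to 17.4. The array reads RNA and not the mutation, so the relation of signal to the mutated allele was not tested.

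SMARCA2, the BRM ATPase and the paralogue of SMARCA4, differed in the opposite direction and was higher in A549 at each of its 4 tested probe sets. At 206542_s_at the signals were 200 and 168 in A549 and 62.5 and 69.8 in NCI-H358. At 206544_x_at they were 139 and 153 against 55.8 and 56.4, and at 217707_x_at 129 and 125 against 43.7 and 44.0. The lines did not overlap at these sets, which were 2.61-fold to 2.90-fold higher in A549. At 217707_x_at the log2 difference was -1.53 (NCI-H358 minus A549, SE 0.10, limma adjusted p = 0.000293).

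The fourth SMARCA2 set, 212257_s_at, was dim. Its signals were 30.2 and 33.7 in A549 and 20.3 and 19.0 in NCI-H358, both below the filter in the latter, so the difference is at least 1.18-fold. The other SMARCA2 sets, 206543_at, 212258_s_at and 228926_s_at, stayed below the filter on all arrays, at 3.48 to 14.5. In A549 SMARCA4 was therefore low beside NCI-H358 while SMARCA2 was high, at the 5 SMARCA4 and 3 SMARCA2 sets measured in both lines. The remaining tested set of each gene passed the filter through 1 line only, so its direction adds no support. Signals of different probe sets have no common scale, so whether SMARCA2 RNA exceeded SMARCA4 RNA within a line cannot be read from them. Of the 6 measured genes nearest to SMARCA4, YIPF2 was lower in A549 (log2 difference 0.66), CARM1 (-0.56) and KANK2 (-0.89) were higher in A549, and 3 were not called. Of the 4 measured neighbours of SMARCA2, VLDLR had -0.41, KANK1 -0.12, PUM3 0.65 and RFX3 0.81.

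**Figure D2:**
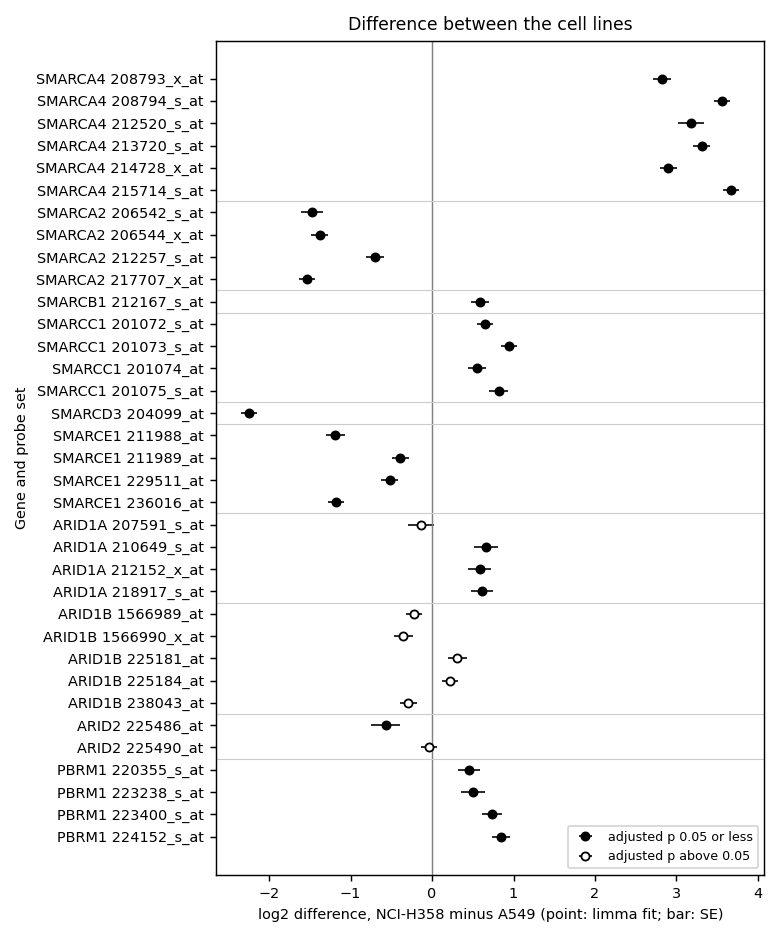
Fitted log2 difference between the lines (x axis, NCI-H358 minus A549) of the 35 SWI/SNF probe sets, with bars for the SE of the limma fit; filled points have an adjusted p of 0.05 or less. The SMARCA4 sets lie between 2.82 and 3.67, the SMARCA2 sets between -1.53 and -0.70 and the SMARCD3 set at -2.24. Where a line was below the filter (SMARCA4 212520_s_at, SMARCA2 212257_s_at, SMARCD3 204099_at, PBRM1 223400_s_at and ARID1A 207591_s_at) the point rests on dim or floored values and is not a measured fold.

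Among the core subunits, SMARCD3, SMARCE1, SMARCC1 and SMARCB1 did not differ in 1 direction. SMARCD3 (BAF60C), 1 of 3 alternative SMARCD proteins and known for its role in heart and muscle, had signals of 74.3 and 81.8 in A549 and of 13.9 and 16.8 in NCI-H358 at 204099_at. It was below the filter on both NCI-H358 arrays, so the difference is at least 2.89-fold (limma adjusted p = 0.000115). This set passed the filter through A549 alone, where it is high, so the p-value adds no support. The other SMARCD3 set, 231144_at, had signals of 8.70 to 10.5 and reached the filter on no array.

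SMARCE1 (BAF57), an HMG-box subunit, was higher in A549 at all 4 of its probe sets, by 1.31-fold to 2.28-fold. At 211988_at the signals were 976 and 966 in A549 and 390 and 467 in NCI-H358 (log2 -1.19, SE 0.11, limma adjusted p = 0.000988). At 211989_at they were 824 and 849 against 656 and 624, a smaller difference of log2 -0.39. The dim sets gave 59.4 and 64.2 against 25.4 and 29.1 at 236016_at and 42.9 and 41.0 against 28.2 and 30.3 at 229511_at. The direction was the same at each set and the lines did not overlap, but the size varied between sets.

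SMARCC1 (BAF155), a scaffold of the complex, was higher in NCI-H358 at all 4 of its sets, by 1.47-fold to 1.92-fold. At 201073_s_at the signals were 102 and 107 in A549 and 199 and 202 in NCI-H358 (log2 0.94, SE 0.10, limma adjusted p = 0.00119). At 201074_at, the brightest, they were 494 and 436 against 669 and 694. At 201075_s_at they were 251 and 228 against 399 and 446, and at 201072_s_at 75.05 and 76.08 against 118 and 119. The lines did not overlap at any set.

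SMARCB1 (SNF5), the core subunit lost in rhabdoid tumours, had signals of 246 and 258 in A549 and of 403 and 357.9 in NCI-H358 at 212167_s_at, 1.51-fold higher in NCI-H358 (limma adjusted p = 0.0081). Its sets 206532_at and 228898_s_at were at 6.01 to 13.3, below the filter.

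Of the DNA-binding subunits of canonical BAF, ARID1A was called at 3 of 4 tested sets and ARID1B at 0 of 5. The 2 genes were not compared with each other. ARID1A, the SWI/SNF gene most often mutated in cancer, was higher in NCI-H358 at its 3 bright sets, by 1.499-fold to 1.582-fold. At 218917_s_at the signals were 487 and 370 in A549 and 644 and 656 in NCI-H358 (log2 0.61, SE 0.14, limma adjusted p = 0.0143). At 212152_x_at they were 398 and 314 against 513 and 548, and at 210649_s_at 193 and 155 against 259 and 289. The lines did not overlap at these sets, and the A549 empty vector array was the nearer of the A549 arrays to NCI-H358. The dim set 207591_s_at, at 21.5 to 28.5, was not called. Of the 6 nearest measured genes of ARID1A, 4 were called higher in NCI-H358 and 0 higher in A549, with log2 differences of the 6 from 0.05 (SFN) to 0.74 (HMGN2). Over all genes 33.1% were called higher in NCI-H358 and 29.9% higher in A549. Around SMARCE1, 4 of 6 were called higher in A549 and 0 in NCI-H358, with log2 differences of the 6 from -4.15 (IGFBP4) to 0.06 (TOP2A). Around SMARCC1 and PBRM1, 3 of 6 each were called higher in NCI-H358 and 0 in A549. Other genes had mixed neighbours. Around SMARCB1, 2 were called higher in NCI-H358 and 3 in A549, around ARID1B 2 and 2, and around ARID2 and SMARCD3 1 and 2 each. The part of the region in the subunit values was not tested.

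ARID1B, the paralogue of ARID1A, was not called at any of its 5 tested sets, and they pointed in different directions. At 225181_at the signals were 160 and 151 in A549 and 178 and 208 in NCI-H358 (log2 0.31). At 1566990_x_at they were 137 and 142 in A549 and 119 and 99.8 in NCI-H358 (log2 -0.35, SE 0.12, limma adjusted p = 0.0514), the value just outside the threshold. The 5 log2 differences ran from -0.35 to 0.31, so no direction for the gene was found. The SE of each set was 0.10 to 0.12. The sets 1566991_at and 233339_s_at were below the filter.

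Of the subunits of PBAF, PBRM1 (BAF180), a subunit with several bromodomains, was higher in NCI-H358 at its 4 tested sets, by 1.37-fold to 1.80-fold at the 3 measured in both lines. At 223238_s_at the signals were 391 and 324 in A549 and 470 and 544 in NCI-H358 (log2 0.51, SE 0.15, limma adjusted p = 0.0332). At 220355_s_at they were 151 and 132 against 178 and 210. The dim sets gave 27.2 and 21.2 against 45.8 and 40.7 at 224152_s_at, and 24.0 on both A549 arrays against 35.6 and 44.9 at 223400_s_at, where A549 was below the filter and the difference is at least 1.48-fold. The set 223400_s_at passed the filter through NCI-H358 alone, so its direction adds no support. The lines did not overlap at the 3 sets measured in both, and 221212_x_at and 232613_at were below the filter.

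ARID2 (BAF200), the DNA-binding subunit of PBAF, had sets that differed from each other. At 225490_at the signals were 119 on both A549 arrays and 115 and 116 in NCI-H358 (log2 -0.04). At 225486_at they were 131 and 119 in A549 and 69.9 and 101 in NCI-H358 (log2 -0.57, SE 0.18, limma adjusted p = 0.0443), the call nearest the threshold. At this set the NCI-H358 arrays lay further apart than the A549 arrays. The sets 1553349_at and 231090_s_at were below the filter, at 4.56 to 10.4.

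The calls differed in how far they rested on single arrays. With the arrays left out 1 at a time and a term for cell line only, all calls of SMARCA4 (6 sets), SMARCA2 (4 sets) and SMARCD3 (1 set) were kept each time, as were 2 of 4 for SMARCE1 and 3 of 4 for SMARCC1. These fits leave 1 line with a single array, whose spread is assumed to be that of the other line, and the kept calls include SMARCA4 212520_s_at, SMARCA2 212257_s_at and SMARCD3 204099_at, which passed the filter through 1 line only. For ARID1A, 0 of 3 calls were left without either NCI-H358 array and 1 without the A549 CHST11 array. For PBRM1, 0 of 4 were left without the A549 CHST11 array and 1 of 4 without any other single array. The SMARCB1 call was lost without either A549 array, and the ARID2 call without any array other than NCI-H358 CHST11. In each case the direction stayed as in the fit of 4 arrays.

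The other subunits of the complex were taken from a list of 18 genes, each represented by its brightest single-gene probe set. Of the 16 tested, 8 were higher in NCI-H358, 1 was higher in A549 and 7 were not called, with a median log2 difference of 0.32. For 1 probe set per gene over all genes, 63.0% were called, 33.1% higher in NCI-H358 and 29.9% higher in A549, and the median was 0.03. SMARCD2, a paralogue of SMARCD3, had signals of 225 and 241 in A549 and of 491 and 444 in NCI-H358 (2.005-fold higher, limma adjusted p = 0.00147). SMARCD1, the other SMARCD gene, was not called (log2 0.17, SE 0.10). The SMARCD genes were not compared with each other. The SMARCD3 set passed the filter through A549 alone, so its direction adds no support beside that of SMARCD2.

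SS18L1, a subunit known from neurons, was higher in NCI-H358 (103 and 106 against 198 and 201, log2 0.93), and SS18, its paralogue, had log2 0.50. BCL7A, an accessory subunit, was the gene called higher in A549 by its brightest set (38.8 and 35.5 against 23.7 and 29.6, log2 -0.49). The brightest sets of BRD7 (log2 0.15) and PHF10 (0.21) were not called, but each gene had 1 other set that was. The 4 BRD7 sets ran from -0.77 to 0.15 and the 2 PHF10 sets from -0.43 to 0.21. DPF2, a histone-reading subunit of canonical BAF, was higher in NCI-H358 by log2 0.61. BRD9, which marks the non-canonical form, was higher by 0.52, and BICRA and BICRAL of the same form were not called (-0.07 and 0.22). SMARCC2, the paralogue of SMARCC1, had 270 and 251 in A549 and 258 and 270 in NCI-H358 (log2 0.02, SE 0.10) and was not called. ACTL6B and DPF3 were below the filter on all arrays.

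Other chromatin regulators were set beside the subunits in the same way. Of 17 tested ATPases of other remodelling families, 8 were higher in NCI-H358, 3 were higher in A549 and 6 were not called (median 0.39). SMARCA1, an ISWI ATPase, was the lowest, with 729 and 732 in A549 and 279 and 298 in NCI-H358 (log2 -1.34), while the other ISWI ATPase, SMARCA5, had 345 and 344 against 729 and 768 (log2 1.12). CHD4, the NuRD ATPase, had log2 1.19, CHD7 1.05, and CHD3 -0.79. Of 18 tested Polycomb genes, which act against SWI/SNF at many genes, 12 were higher in NCI-H358, 1 was higher in A549 and 5 were not called (median 0.53). JARID2 (log2 1.22), PHC2 (1.08), PHF19 (1.05) and MTF2 (1.02) were at least 2-fold higher in NCI-H358, and the methyltransferase EZH2 was higher by 0.41. The lowest were PHC1 (-0.52), the gene called higher in A549, and SUZ12 (-0.18), not called. The fitted SMARCA4 difference of 3.55 lay outside the range of both lists.

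**Figure D3:**
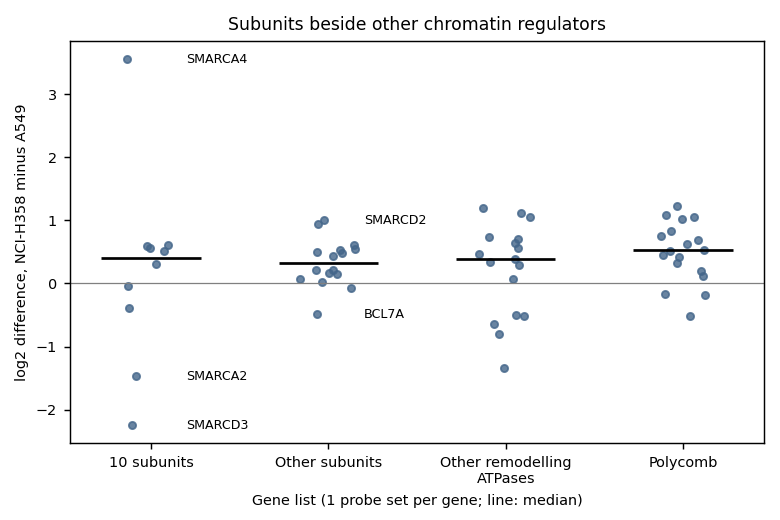
Fitted log2 difference between the lines (y axis, NCI-H358 minus A549) of each tested gene, 1 probe set per gene, in 4 lists along the x axis, with a line at the median of each list. SMARCA4 at 3.55, SMARCA2 at -1.47 and SMARCD3 at -2.24 lie beyond all genes of the other 3 lists.

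The next comparison asked whether the subunits differed between the CHST11 and the empty vector within a line. With 1 array in a group this has no test, and genes were counted by size. The number of SWI/SNF probe sets at least 1.5-fold apart was 0 of 33 measured in A549 and 0 of 32 in NCI-H358. Over all measured probe sets, 1.30% were at least 1.5-fold apart in A549 and 1.36% in NCI-H358. Scatter between probe sets was gauged from genes with several sets: the SD of the log2 ratio between sets of the same gene was 0.158 for A549, and for NCI-H358 it was 0.173. A shift shared by all sets of a gene, such as one between 2 cultures or arrays, is not in this SD. A ratio beyond it is therefore not evidence of a vector effect.

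By the median of their sets, the ATPases and core subunits lay within 1 SD of this scatter, while single sets lay beyond it. SMARCA4 had log2 ratios of -0.34 to 0.31 over its 5 measured sets in A549 (median 0.11) and of -0.17 to 0.10 over 6 in NCI-H358 (median -0.02). SMARCA2 had -0.25 to 0.16 in A549 and 0.01 to 0.16 in NCI-H358. SMARCC1 had medians of -0.06 and 0.03, SMARCE1 of 0.01 and 0.15, and SMARCB1 had 0.07 and -0.17 at its single measured set. SMARCD3 had 0.14 in A549 and was below the filter in NCI-H358. The low SMARCA4 and high SMARCA2 signals of A549 were thus seen with both vectors.

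By the median of a gene's sets, ARID1A (-0.35) and PBRM1 (-0.27) were furthest from 0 in A549, though single SMARCA4 sets reached -0.34 and 0.31. All 4 ARID1A sets lay below 0 in A549, between -0.40 and -0.32, and the 3 measured PBRM1 sets lay between -0.36 and -0.19. In NCI-H358 the 3 measured ARID1A sets lay between 0.03 and 0.16, and the 4 PBRM1 sets between -0.17 and 0.33. ARID2 had its highest value in NCI-H358, 0.54 at 225486_at, while its other set had 0.01. ARID1B had medians of -0.09 in A549 and -0.02 in NCI-H358. The A549 signs of ARID1A and PBRM1 were kept under quantile, median and cyclic loess scaling of the arrays. In NCI-H358, 1 of the 3 ARID1A sets was no longer above 0 under quantile scaling.

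Over all SWI/SNF sets, 20 of 33 lay below 0 in A549 (median -0.07), where 44.3% of all measured probe sets did. In NCI-H358, 23 of 32 lay above 0 (median 0.05), where 51.4% of all did, a count that was 17 under quantile scaling and 18 under median centring. Of the 30 sets measured in both lines, 16 lay below 0 in A549 and above 0 in NCI-H358, or 13 to 16 under the other scalings. That is 53.3% of the sets, where 23.9% of all probe sets measured in both lines had this pattern, and sets of 1 gene are not independent. A list of genes with very long mRNAs, written after the arrays had been read, was set beside these values. Of its 35 measured genes, 34 lay below 0 in A549 (median -0.59) and 18 were at least 1.5-fold lower, and in NCI-H358 26 of 34 lay above 0 (median 0.10). The 7 measured genes of the mitochondrial genome lay above 0 in A549 (median 0.73), and in NCI-H358 5 lay below 0 and 2 above (median -0.14). The part of these shifts in the ARID1A and PBRM1 values was not tested.

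**Figure D4:**
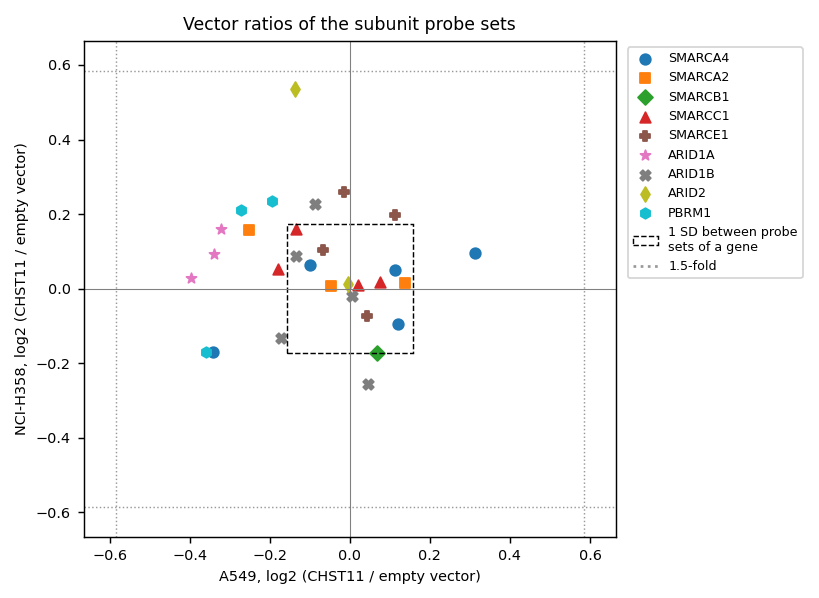
Log2 ratio of CHST11 over empty vector in A549 (x axis) and NCI-H358 (y axis) for the 30 SWI/SNF probe sets measured in both lines, coloured by gene; the dashed box is 1 SD between probe sets of a gene in each line and the dotted lines are 1.5-fold. No set reaches a dotted line. The ARID1A and PBRM1 sets lie left of the box, as do single sets of SMARCA4, SMARCA2, SMARCC1 and ARID1B.

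Treating the lines as repeats of the vector contrast, limma called 0 of the 35 SWI/SNF sets and 0 of all 24457 probe sets, 0% of them, at an adjusted p of 0.05. At an unadjusted p under 0.05 it gave 0 of the 35 sets and 752 of all, and with a trend in eBayes 1 of the 35 and 688 of all, again with 0 called. The fitted differences of the SWI/SNF sets ran from -0.27 (PBRM1 224152_s_at) to 0.21 (SMARCA4 208793_x_at). The error of this fit is the difference in response between the lines, so a subunit that responded in 1 line alone would have a large error.

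**Figure D5:**
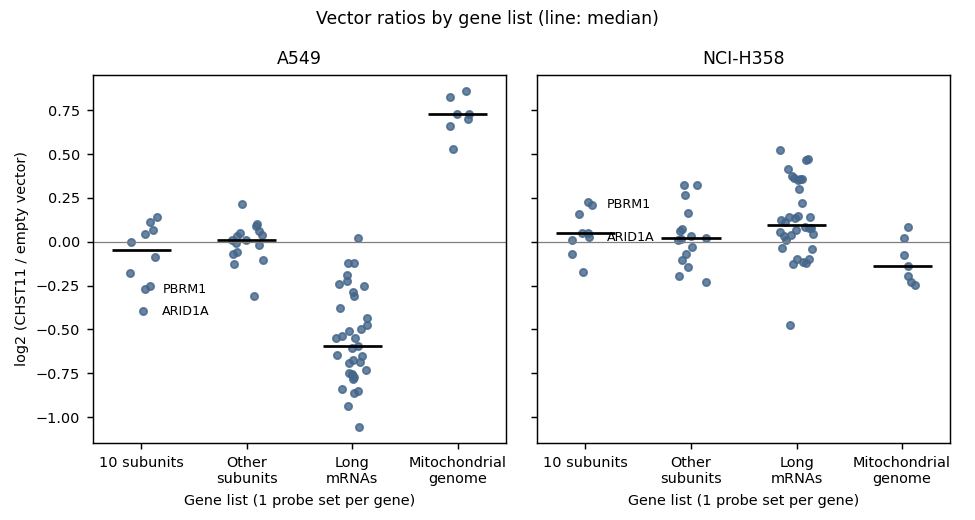
Log2 ratio of CHST11 over empty vector (y axis) in A549 (left) and NCI-H358 (right) for 4 gene lists along the x axis, 1 probe set per gene, with a line at each median. In A549 the long mRNA genes have a median of -0.59 and the mitochondrial genome genes 0.73, and ARID1A at -0.40 is the lowest of the 10 subunits.

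The other subunits had medians of 0.01 in A549 and 0.02 in NCI-H358 between vectors, and 0 of 16 measured in each line were at least 1.5-fold apart. Of the ATPases of other families, HELLS was the 1 gene past this size, with signals of 228 and 351 in NCI-H358 (log2 0.62) and of 444 and 369 in A549 (-0.27). Of the Polycomb genes, 0 of 18 were past it in either line.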

How the data were processed

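Expression was measured on 4 Affymetrix 1-colour arrays, 1 for each group in the labels. Linear intensities were deposited, made by the authors with MAS5 per the submitters' processing notes. Its version and scaling target, any later step and the detection calls were not stated in those notes. No scanner file was used.

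Of 54675 probe sets, 62 controls were left out. Probe sets were named where the platform annotation gave 1 symbol, and 99.9% of these matched a RefSeq gene by Entrez ID, with 0 symbols of the 10 genes changed. Deposited values were floored at 16.14, their 50th percentile, before taking log2. Probe sets at 27 or more on at least 1 array entered a linear model (R 4.3.3, limma 3.58.1 with eBayes) on cell line plus vector, with 1 residual degree of freedom and Benjamini-Hochberg adjustment over all 24457. The fit was tested on simulated data. Its share of false calls there depended on how the variances were drawn. It went above the nominal share under each scheme, at least for the larger simulated difference. Calls may therefore be too liberal, and a call near the threshold is weak. The simulation changed far fewer probe sets than the 62.0% called between the lines, so its share of false calls does not carry over to these data. An "at least" fold sets a line that is under the filter on both its arrays to the filter value. In lists, a gene stands by its brightest single-gene probe set, by mean log2. The number of arrays limits the precision.

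The genes, lists and tests were chosen with earlier results of these data known, and the long mRNA list of 40 genes was written from general knowledge after the files had been read. The rule for names was all members, list genes called and at least 2-fold apart, the 2 highest and 2 lowest of each list, list genes at least 1.5-fold apart between vectors, and the label checks. It was followed for the other subunits, ATPases and Polycomb genes. For the marker, mitochondrial genome and long mRNA lists it was not: they are given by counts, medians or sums, with some markers named. SMARCC2, SMARCD1, SS18, DPF2, BRD7, BRD9, PHF10, BICRAL and EZH2, and the genes neighbouring the members, fall outside that rule and were chosen after their values were seen. Scaling, filter, floor, eBayes trend, model terms, 1 probe set per gene and leaving out arrays were the alternatives. Tables and plots used Python 3.11.15, NumPy 2.4.6, pandas 2.3.3 and matplotlib 3.10.9.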

Additional observations from a re-analysis of the deposited data

Results flagged for a closer look

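PBRM1 had vector ratios of opposite sign in the 2 lines, each beyond the SD between probe sets of a gene. At 220355_s_at the log2 ratio of CHST11 over empty vector was -0.19 in A549 and 0.24 in NCI-H358. At 223238_s_at it was -0.27 and 0.21. There was 1 array in each group, so the difference between the lines was not tested. The dimmest PBRM1 set measured in both lines, 224152_s_at, had -0.36 and -0.17, the same sign in both.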

How the results depend on the processing

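Fits with 1 array left out had a term for cell line only, so they are set against the fit of 4 arrays with that term, which called 15803 probe sets, 30 for SWI/SNF (all 28 calls of the fit with a vector term among them) and 35 genes of the other subunits, ATPases and Polycomb lists. With 1 array left out the calls were 9699 to 11426, 19 to 21 for SWI/SNF and 21 to 29 for these lists, and 16 of the 28 were kept each time. With no filter the calls were 532, 0 for SWI/SNF and 0 for these lists. That fit keeps floored probe sets with no variance, and its prior degrees of freedom were 0.282 against 3.82. With no filter and no floor, a setting added after seeing the data, 21 of the 28 were kept and 1 SWI/SNF probe set, 232613_at of PBRM1 with signals of 9.72 and 18.2 in A549, was at least 1.5-fold apart. With 1 probe set per gene tested, the calls were 7938 over all and 8 for SWI/SNF, from fewer features. No SWI/SNF difference between lines changed sign under any setting run, and SMARCA4 stayed between log2 2.66 and 3.84. Quantile, median and cyclic loess scaling called 29 SWI/SNF sets each. No paired analysis was possible because the labels number no replicates, with 1 array in each group. The shared vector difference in the report already takes the cell lines as blocks. Dim signals, with detection calls not used here, limit SMARCD3 and the dim sets.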
